A study of Mus musculus with 3 samples.

Results

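Cd4, Sh3rf2, Serpina9, Lrrc10b, Ido1, Gpx6, Klf7 and Amhr2 are 8 genes out of 16610 in a table of ribosome-bound transcripts from mouse brain, chosen by their low values in the hemisphere with an occluded artery against both right hemispheres. They are what remains of the 10 lowest genes on that measure once the striatal receptor genes Adora2a and Drd2 are left out. The libraries were the left hemisphere of animals with middle cerebral artery occlusion (MCAO, a stroke model) for 1 h, the opposite, right hemisphere after MCAO (contralateral), and a right hemisphere from animals that had no MCAO (control). All animals were killed after 3 days, and the middle section of the hemisphere was used. Each library pooled 3 animals with 2 technical replicates, so each group had 1 library and no difference has a replicate check. The RNA came from a RiboTag pull-down, which precipitates an epitope-tagged ribosomal protein together with the transcripts on those ribosomes. The series is about astrocytes, while the labels give neither the driver of the tag nor strain or age, and every group carries the tag. No left hemisphere without MCAO was among the samples used here, so side and occlusion cannot be told apart.

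The recovered depth was 25930258 reads in the MCAO, 33886604 in the contralateral and 31833456 in the control library. Summed over 8 astrocyte markers the normalised counts were 318328, 340395 and 348505 in the MCAO, contralateral and control libraries, and over 8 pan-neuronal markers 131576, 143403 and 157343, so transcripts of both cell types were in each library. The contralateral library stood apart through testis genes, since 10 male germ cell genes summed to 25.7 in the MCAO, 10291 in the contralateral and 38.8 in the control library. Results that use it are therefore given for each right hemisphere on its own. A normalised count is a read count divided by a size factor for its library, and ratios carry a 95% counting interval that covers no variation between animals.

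The striatum is the large input nucleus of the basal ganglia, and much of its lateral part is supplied by the middle cerebral artery. Most of its neurons are medium spiny neurons, which form an indirect pathway marked by Drd2 and Adora2a and a direct pathway marked by Drd1. The 8 genes share no protein family. They encode cell-surface receptors (Cd4, Amhr2), enzymes (Ido1, Gpx6), a secreted serpin (Serpina9), a RING-type ubiquitin ligase (Sh3rf2), a transcription factor (Klf7) and a leucine-rich repeat protein (Lrrc10b). Several are textbook genes of other organs, such as Cd4 of T helper cells and Amhr2 of the gonads, while Gpx6 has been described in striatal neurons of the mouse.

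The sequences before the annotated starts are shown because the members were low together. Promoter sequences came from RefSeq on GRCm38.p6, and windows are shown for 4 of the 8 genes, namely Lrrc10b, Gpx6, Klf7 and Amhr2. No window is shown for Cd4, Sh3rf2, Serpina9 and Ido1. Sh3rf2 was left out beforehand, so whether it has a match was not tested. Each line gives, on the strand of the gene, the 250 bases before the transcript start that the RefSeq promoter table uses. That start is the outer end of the printed gene span for Lrrc10b, and lies inside the span for Gpx6, Klf7 and Amhr2, whose spans cover further transcripts. Capitals mark matches on either strand to the GC box GGGCGG, the E-box CANNTG, the TATA box TATAAA or the cAMP response element TGACGTCA, which are separate searches.
Lrrc10b, minus strand, chr19:10457448-10457697: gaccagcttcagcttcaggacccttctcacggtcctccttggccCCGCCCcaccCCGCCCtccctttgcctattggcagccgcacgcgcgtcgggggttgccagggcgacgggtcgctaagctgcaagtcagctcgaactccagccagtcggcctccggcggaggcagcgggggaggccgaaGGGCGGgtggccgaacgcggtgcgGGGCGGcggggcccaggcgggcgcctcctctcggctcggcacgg
Gpx6, plus strand, chr13:21311953-21312202: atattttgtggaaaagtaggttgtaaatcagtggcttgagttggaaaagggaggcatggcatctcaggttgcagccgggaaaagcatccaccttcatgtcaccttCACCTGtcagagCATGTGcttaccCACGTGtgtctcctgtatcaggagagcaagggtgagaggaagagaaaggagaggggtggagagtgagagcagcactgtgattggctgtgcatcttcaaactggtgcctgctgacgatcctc
Klf7, minus strand, chr1:64121390-64121639: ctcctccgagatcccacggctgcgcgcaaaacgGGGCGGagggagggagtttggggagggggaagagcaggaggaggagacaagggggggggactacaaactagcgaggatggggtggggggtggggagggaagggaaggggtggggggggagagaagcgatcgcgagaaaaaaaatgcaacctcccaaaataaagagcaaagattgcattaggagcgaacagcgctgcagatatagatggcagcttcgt
Amhr2, plus strand, chr15:102445117-102445366: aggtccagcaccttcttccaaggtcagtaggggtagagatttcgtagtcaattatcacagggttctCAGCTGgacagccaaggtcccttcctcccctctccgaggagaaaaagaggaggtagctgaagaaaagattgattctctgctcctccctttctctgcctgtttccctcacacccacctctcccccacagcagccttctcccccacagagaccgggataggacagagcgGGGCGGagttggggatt
No motif was found in all 4 windows. The GC box occurred 4 times in Lrrc10b and 1 time each in Klf7 and Amhr2, and it was held by 32.7% of 32851 promoter windows of this length and by 55.4% of the 14503 windows of genes past the filter on low values. The E-box occurred 3 times in Gpx6 and 1 time in Amhr2, against 66.2% of all windows and 58.6% of those past the filter. Neither the TATA box, held by 12.4% of all windows and 6.72% past the filter, nor the cAMP response element, held by 1.55% and 2.53%, was among the letters of these 4 windows. The windows differed in base composition, with 74.0% G and C in Lrrc10b, 59.2% in Klf7, 55.2% in Amhr2 and 50.8% in Gpx6, around a median of 52.4% over all windows.

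All 8 genes were at least 2-fold lower in the MCAO library than in each right hemisphere, on the scale of log2(normalised count + 5). That contrast chose them, so the count is a description. Over all 14906 genes with a mean of at least 20 normalised counts, 0.517% were that low against both, which is 77 genes, and all 8 members passed this filter. Amhr2 passed it through its contralateral value of 77.2, since its MCAO and control values, 5.88 and 32.9, average under 20. Without the filter all 8 members were still that low. Against the control alone the share of all genes was 1.25%, and against the contralateral library alone 4.96%, with all 8 members past the size in either case. Both comparisons share the MCAO library. In bulk pools, fewer cells of a type and less RNA per cell cannot be told apart.

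**Figure D1:**
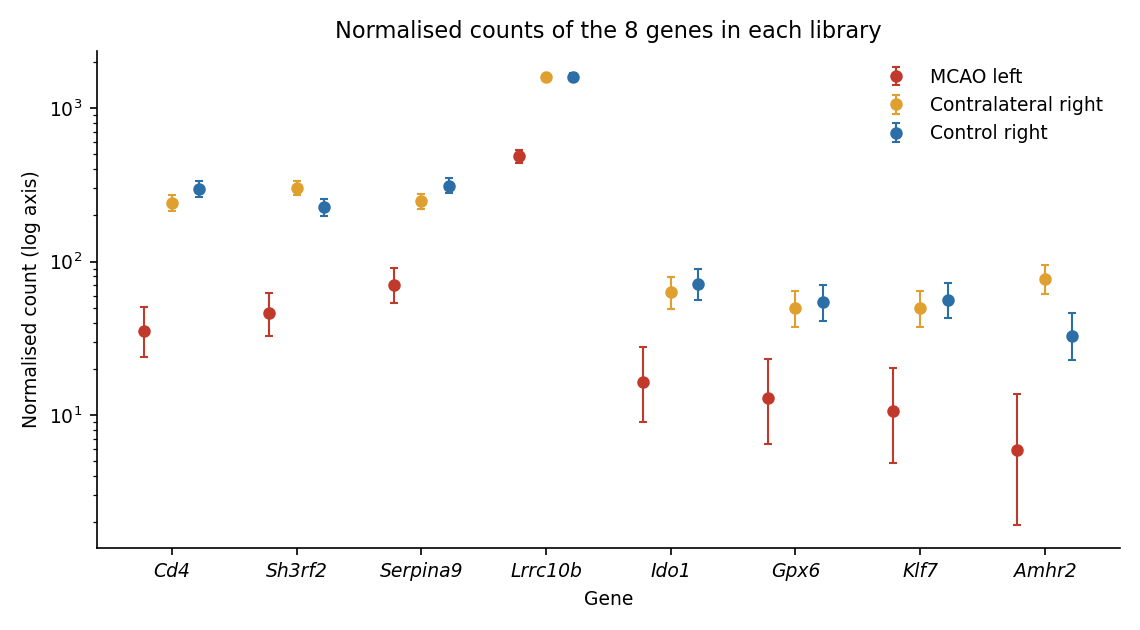
Normalised counts (log axis) of the 8 genes in the MCAO left, contralateral right and control right library, with 1 point per library and exact 95% Poisson counting intervals as bars. The MCAO point lies below both right-hemisphere points for every gene, from 487 for Lrrc10b down to 5.88 for Amhr2, and the bars widen as reads become few.

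Among the receptors, Cd4 encodes the co-receptor that binds MHC class II on T helper cells (chromosome 6, 124864693 to 124888247). It had 35.3 normalised counts in the MCAO, 241 in the contralateral and 297 in the control library, from 30, 272 and 307 reads. The MCAO library was the low one and the right hemispheres were close to each other. The fold was 6.84 lower than contralateral (4.68 to 10.3) and 8.43 lower than control (5.78 to 12.7), which put Cd4 at rank 1 by the smaller of both log2 differences.

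Amhr2 encodes the type II receptor for anti-Mullerian hormone, a TGF-beta family ligand known from gonad development (chromosome 15, 102445002 to 102454640). It had 5.88 normalised counts in the MCAO, 77.2 in the contralateral and 32.9 in the control library, from 5, 87 and 34 reads. Here the right hemispheres differed from each other, with the contralateral one higher. The MCAO value was 13.1-fold below contralateral (5.41 to 41.4) and 5.6-fold below control (2.18 to 18.3), and with 5 reads it is the least precise of the group.

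Of the enzymes, Ido1 encodes indoleamine 2,3-dioxygenase, which opens the ring of tryptophan at the entry of the kynurenine pathway (chromosome 8, 24584133 to 24596952). It had 16.5 normalised counts in the MCAO, 63.0 in the contralateral and 71.7 in the control library, from 14, 71 and 74 reads. Only the MCAO library was low, 3.83-fold below contralateral (2.14 to 7.35) and 4.35-fold below control (2.44 to 8.35). Gpx6 encodes a glutathione peroxidase first known from olfactory tissue (chromosome 13, 21295465 to 21319625). Its values were 12.9 normalised counts in the MCAO, 49.7 in the contralateral and 54.2 in the control library, from 11, 56 and 56 reads. It was 3.84-fold lower than contralateral (1.99 to 8.13) and 4.19-fold lower than control (2.17 to 8.87), and it alone of the 8 had an interval reaching inside 2-fold.

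Serpina9 encodes a serine protease inhibitor called centerin, known from germinal centre B cells in humans (chromosome 12, 103996615 to 104013652). It had 70.6 normalised counts in the MCAO, 247 in the contralateral and 312 in the control library, from 60, 278 and 322 reads. The fold was 3.49 lower than contralateral (2.64 to 4.7) and 4.42 lower than control (3.35 to 5.92). Sh3rf2 encodes a relative of the scaffold protein POSH (chromosome 18, 42052502 to 42158695). It had 45.9 normalised counts in the MCAO, 303 in the contralateral and 227 in the control library, from 39, 342 and 234 reads. Its fold was 6.61 lower than contralateral (4.74 to 9.47) and 4.94 lower than control (3.51 to 7.12), so that, unlike for Serpina9, the contralateral library was the highest.

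Klf7 encodes a zinc-finger transcription factor of the Kruppel-like family with roles in neuron development (chromosome 1, 64029448 to 64122345). It had 10.6 normalised counts in the MCAO, 49.7 in the contralateral and 56.2 in the control library, from 9, 56 and 58 reads. It was 4.69-fold lower than contralateral (2.3 to 10.8) and 5.31-fold lower than control (2.61 to 12.2). Lrrc10b, a leucine-rich repeat gene of little described function (chromosome 19, 10455371 to 10457447), rested on the most reads. It had 487 normalised counts in the MCAO, 1589 in the contralateral and 1607 in the control library, from 414, 1791 and 1659 reads. The right hemispheres were nearly equal, and the MCAO value was 3.26-fold below contralateral (2.93 to 3.64) and 3.3-fold below control (2.96 to 3.68). Lrrc10b thus had the smallest fold of the 8 against both right hemispheres and the narrowest intervals.

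**Figure D2:**
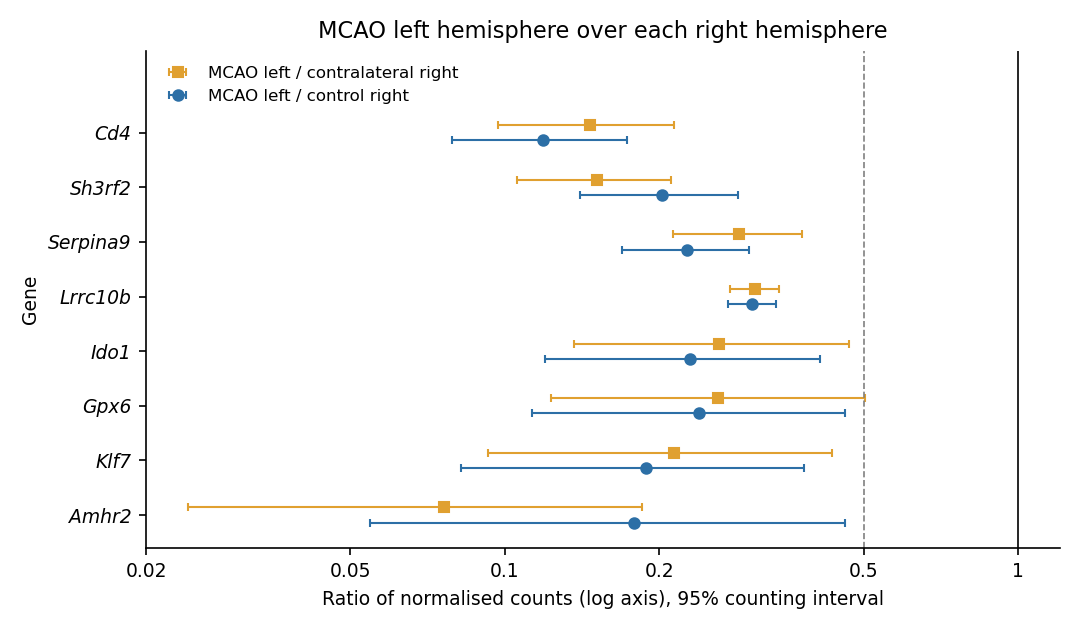
Ratio of normalised counts (log axis), MCAO left over contralateral right (squares) and over control right (circles), with 95% counting intervals. All 16 ratios lie left of the dashed line at 0.5, from 0.0762 for Amhr2 to 0.306 for Lrrc10b, and the upper end for Gpx6 over contralateral right, 0.502, passes it.

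Ordered by the smaller of both log2 differences, the members held ranks 1, 2 and 5 to 10 of 14906 genes. Adora2a at rank 3, with differences of -2.11 from contralateral and -2.44 from control, and Drd2 at rank 4, with -2.01 and -2.33, stood between them. The last member, Gpx6, had -1.61 from contralateral and -1.72 from control. Just outside the group, at rank 12, Pde10a, a phosphodiesterase gene of medium spiny neurons, had -1.58 and -1.82. The values thus ran on without a gap at the edge of the group.

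Likeness of pattern was measured as the distance in the pair of log2 differences, over the 3 libraries. The genes nearest to Cd4 were Adora2a at 0.69, Sh3rf2 at 0.72, Drd2 at 0.83, Amhr2 at 1.15 and Serpina9 at 1.21. Nearest to the median of the 8 members were Klf7 at 0.08, Ido1 at 0.13, Serpina9 at 0.17 and Lrrc10b at 0.21. Among genes that are no members, Pde10a at 0.21, Nyap2 at 0.32 and Mme at 0.42 were near that median. With 3 libraries many genes can share a pattern, so these distances are a description.

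Of 22 striatal neuron genes from lists of the indirect pathway, the direct pathway and both, 9 were at least 2-fold lower in the MCAO library than in both right hemispheres. Over all genes past the filter that share was 0.517%. The indirect list had 3 of 6 (Drd2, Adora2a and Gpr6), the direct list 2 of 6 (Drd1 and Slc35d3) and the shared list 4 of 10 (among them Pde10a, Ppp1r1b and Gng7). Against the control, the median log2 difference was -1.29 for the indirect, -0.91 for the direct and -1.15 for the shared list, beside -1.9 for the 8 members and -0.0027 for all genes. Against the contralateral library the medians were -1.24, -0.56 and -0.9 for these lists, -1.77 for the members and -0.002 for all genes. None of 8 pan-neuronal and none of 7 cortical neuron genes was at least 2-fold lower against both, with medians of -0.19 and -0.3 against the control. With 0.517% of all genes that low, counts of 0 in lists this short say little.

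**Figure D3:**
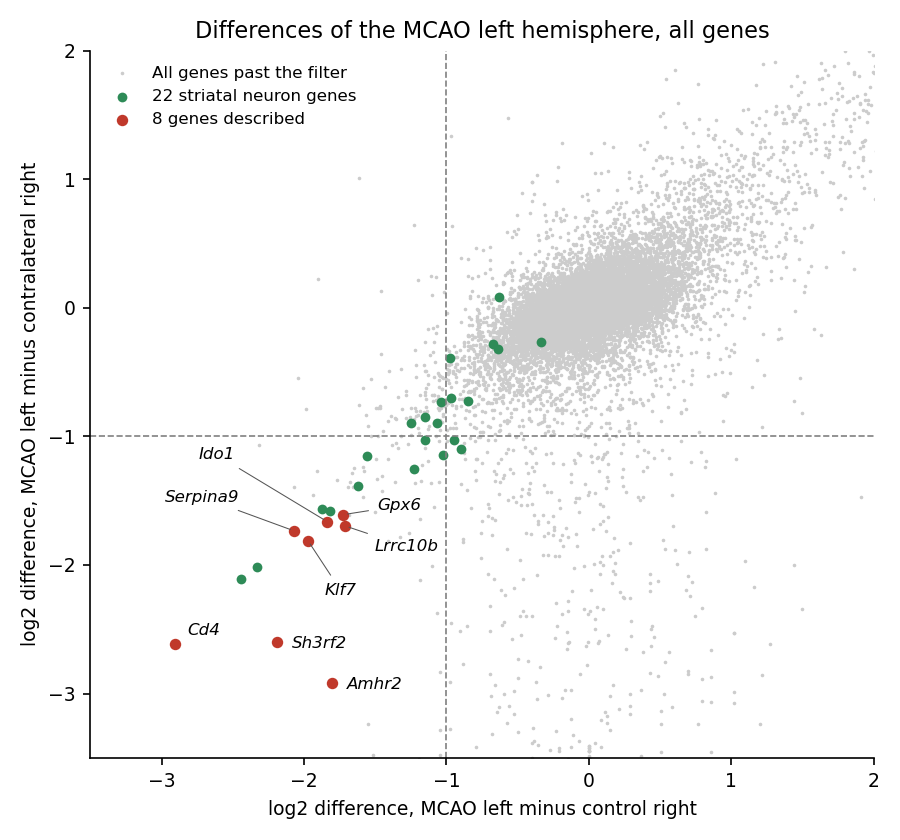
Log2 difference of the MCAO left library from control right (horizontal) and from contralateral right (vertical) for the 14906 genes past the filter, of which 534 lie outside the plotted range. Dashed lines mark 2-fold lower. The 8 described genes and 9 of the 22 striatal genes lie beyond both dashed lines at the lower left, with Cd4 at -2.91 and -2.61 the farthest from control. Other striatal genes lie nearer the main cloud, such as Pdyn at -0.34 and -0.26. Grey points below the cloud are genes high in the contralateral library.

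A ratio within a library does not depend on the scaling between libraries, so each member was also set against the summed reads of the 22 striatal genes, which were 29696 in the MCAO, 77993 in the contralateral and 80662 in the control library. Cd4 had 10.1 reads per 10000 striatal reads in the MCAO library (6.81 to 14.4), 34.9 in the contralateral (30.8 to 39.3) and 38.1 in the control library (33.9 to 42.6). Lrrc10b had 139 (126 to 154), 230 (219 to 241) and 206 (196 to 216) in the same libraries. Sh3rf2 had 13.1, 43.9 and 29.0, and Serpina9 had 20.2, 35.6 and 39.9. For these 4 genes the MCAO interval lay wholly below both right-hemisphere intervals. The members were selected on low MCAO values in these same libraries, so low ratios to the summed list are part of that choice and a description. Single striatal genes were as low, since Adora2a was 4.35-fold below contralateral and 5.5-fold below control, and Drd2 4.12-fold and 5.15-fold, beyond the folds of Lrrc10b and Serpina9.

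For the other 4 genes the MCAO interval overlapped at least 1 right-hemisphere interval on this measure. Ido1 had 4.71 reads per 10000 striatal reads in the MCAO (2.58 to 7.91), 9.1 in the contralateral and 9.17 in the control library (7.2 to 11.5). Gpx6 had 3.7, 7.18 and 6.94, and Klf7 had 3.03, 7.18 and 7.19. Amhr2 had 1.68, 11.2 and 4.22. With 5 to 14 MCAO reads, overlap of separate intervals does not settle a difference beyond that of the striatal genes. The summed striatal ratio of MCAO was 0.505 over contralateral and 0.447 over control, taken without its own counting error. Upper ends of the member ratios were 0.468 and 0.41 for Ido1 and 0.434 and 0.383 for Klf7, below both sums. Those of Gpx6, 0.502 and 0.46, and of Amhr2, 0.185 and 0.459, lay above the sum for control only. All 4 genes were chosen for low MCAO values, so this is a description.

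**Figure D4:**
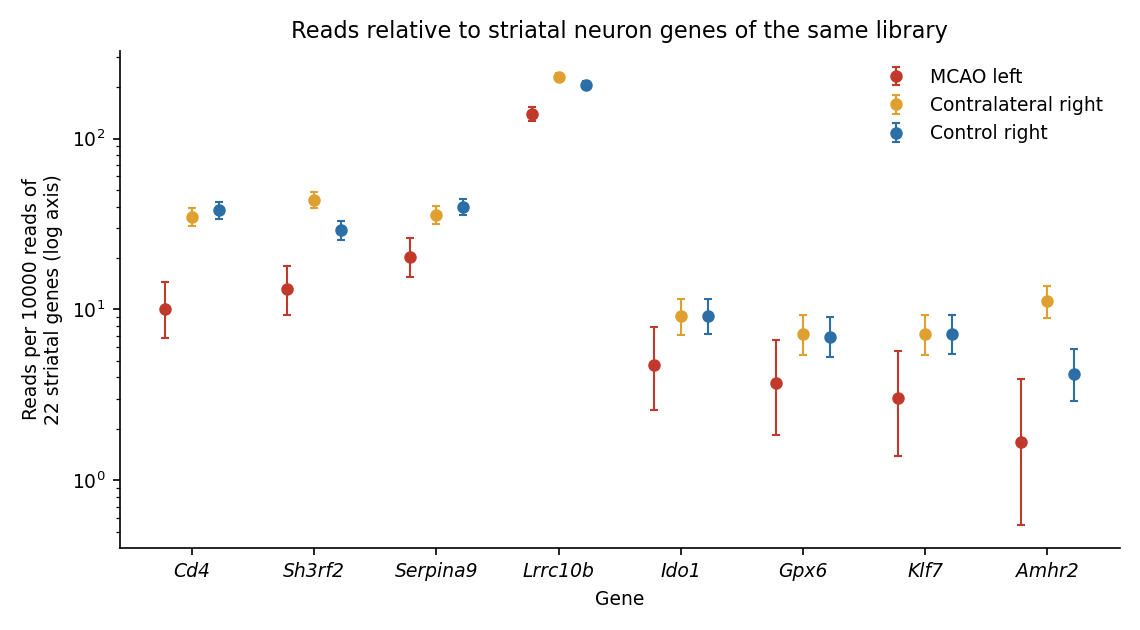
Reads of each gene per 10000 reads summed over 22 striatal neuron genes of the same library (log axis), with exact 95% binomial counting intervals, for the MCAO left, contralateral right and control right library. The MCAO interval is separate from both others for Cd4, Sh3rf2, Serpina9 and Lrrc10b, with Cd4 at 10.1 against 34.9 and 38.1.

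The contralateral library was next set against the control library, a contrast that did not choose the members directly although both libraries served as references. On the log2 scale 6 of the 8 members were below 0, beside 7535 of all 14906 genes and 18 of the 22 striatal genes, and the members' median difference was -0.14, beside -0.0037 for all genes and -0.28 for the 22 striatal genes. Cd4 was at 0.812-fold of the control (0.687 to 0.959) and Serpina9 at 0.791-fold (0.671 to 0.931), close to Adora2a and Drd2 with log2 differences of -0.34 and -0.32. The intervals of Lrrc10b at 0.989-fold, Gpx6 at 0.916-fold, Klf7 at 0.885-fold and Ido1 at 0.879-fold included 1. Sh3rf2 was higher in the contralateral library, at 1.34-fold (1.13 to 1.59).

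Amhr2, at 2.34-fold of the control (1.56 to 3.59), was the 1 member past 2-fold upward in this contrast, against 5.17% of all genes. Its log2 difference of 1.12 became 0.88 with a pseudocount of 20, which is under 2-fold. No member was 2-fold lower there, against 0.362% of all genes. All 10 male germ cell genes passed 2-fold upward too, with a median log2 difference of 6.82. They passed the filter only through the contralateral library, and their list was chosen after its values were seen. That all 10 passed was therefore fixed by the choice. Of 12 genes of gonadal support and steroid cells, 9 had values, 6 passed the filter and 2 passed 2-fold upward. Those 2, Cyp17a1 and Insl3, also passed the filter only through the contralateral library. The list summed to 589 in the MCAO, 786 in the contralateral and 622 in the control library. Inhba was the 1 gene of this list at least 2-fold lower in the MCAO library against both, where 0.517% of all genes were. It had 7.06 normalised counts in the MCAO, 26.6 in the contralateral and 33.9 in the control library, from 6, 30 and 35 reads. Insl3, a Leydig cell hormone gene, reached 60.3 normalised counts in the contralateral library but only the listed minimum of 1 in both others, whereas Amh, the ligand gene of the receptor, had 11.8 in the MCAO, 7.1 in the contralateral and 12.6 in the control library. The part of testis transcripts in the contralateral Amhr2 value was not tested, and against the control library alone Amhr2 was still 5.6-fold lower in the MCAO library. Of the 77 genes low against both, 19 also passed 2-fold upward in the contralateral over the control library, and Amhr2 was the 1 member among them.

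Genes that work with Cd4 had other values. The members were chosen among the lowest genes, so standing below relatives, here and for the other families, is part of that choice. Of 10 T cell markers other than Cd4, 4 had a row in the table used here, and their sum was 215 normalised counts in the MCAO, 161 in the contralateral and 184 in the control library. Lck, the kinase bound by the CD4 tail, had 87.0, 42.6 and 66.8, and Zap70, a kinase of the T cell receptor, had 77.6, 72.8 and 90.1. None of the 3 T cell markers past the filter was 2-fold lower against both, where 0.517% of all genes were, so 3 genes say little about the list. Among CD4 partner genes, 0 of 9 past the filter were lower and 1 was higher against both, where 2.58% of all genes were higher. This was H2-DMb1, an MHC class II loading gene, with 94.1 normalised counts in the MCAO, 38.2 in the contralateral and 38.7 in the control library. The CD4 homologue Lag3 had 189, 51.5 and 129 normalised counts in the same libraries. The class II chain gene Cd74 had 258, 160 and 114. Not all partners were highest in the MCAO library, since H2-DMa had 245, 213 and 305, and Il16 had 188, 201 and 145. The median log2 difference of the 9 partner genes was 0.36 from control and 0.29 from contralateral. In the MCAO library 6 of 8 microglia markers exceeded both right hemispheres by 2-fold or more, and none was lower.

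Around the enzymes, none of 5 other kynurenine pathway genes past the filter differed 2-fold against both. Over all genes 0.517% were lower and 2.58% higher, so counts of 0 in lists this short say little. Ido2, the neighbour and relative of Ido1, had 57.6 normalised counts in the MCAO, 57.7 in the contralateral and 63.0 in the control library, and Ccbl1, a kynurenine aminotransferase gene, had 421, 461 and 536. Of 13 pathway genes listed beside Ido1, 7 had a row. Ido1 itself was chosen for low values against both, so its standing apart from these genes is a description. Of 5 other glutathione peroxidase genes none was lower, and the median of this family against the control was 0.67, opposite in sign to Gpx6. Gpx1, the cytosolic enzyme, had 2304 normalised counts in the MCAO, 1411 in the contralateral and 1045 in the control library, and Gpx4, which reduces lipid peroxides, had 7072, 7449 and 6166.

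Genes of the Serpina3 cluster were high where Serpina9 was low. Of 7 further clade A serpin genes past the filter, 5 exceeded both right hemispheres by 2-fold or more in the MCAO library and none was lower. Over all genes 2.58% were higher and 0.517% lower against both, so the absence of lower genes says little. Against the control library the list had a median log2 difference of 2.04. Serpina3n had 25376 normalised counts in the MCAO, 8471 in the contralateral and 6171 in the control library, and Serpina3m had 1035, 408 and 232. Serpina1b had 17.6 normalised counts in the MCAO, 32.8 in the contralateral and 22.3 in the control library. Its MCAO ratio intervals, 0.274 to 1.003 over contralateral and 0.384 to 1.585 over control, both included 1, so its direction is not settled. Serpina1c, which did not pass the filter, was listed at 1 in the MCAO library and had 15.1 and 9.69 in the others. The Serpina3 genes are near-identical copies that can share reads, so their single values are uncertain.

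The other SH3RF and JNK module genes, 11 in all, had none lower or higher against both, and a median of -0.19 against the control. Since 0.517% of all genes were lower and 2.58% higher against both, counts of 0 in this and the following lists say little. Sh3rf1, encoding POSH itself, had 862 normalised counts in the MCAO, 976 in the contralateral and 1140 in the control library, and Sh3rf3 had 626, 701 and 802. Of 13 other Kruppel-like factor genes past the filter none was lower against both, and 2 were lower against the control alone. These were Klf9, at 1770 in the MCAO, 2856 in the contralateral and 3699 in the control library, and Klf12, at 198, 327 and 442. Among receptors and SMADs of the AMH and BMP pathway, 0 of 11 past the filter were lower, and the list median against the control was -0.13. The type II receptor gene Bmpr2 had 5834 normalised counts in the MCAO, 4865 in the contralateral and 6249 in the control library, and Bmpr1a, a type I partner of AMHR2, had 2604, 2766 and 2751.

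**Figure D5:**
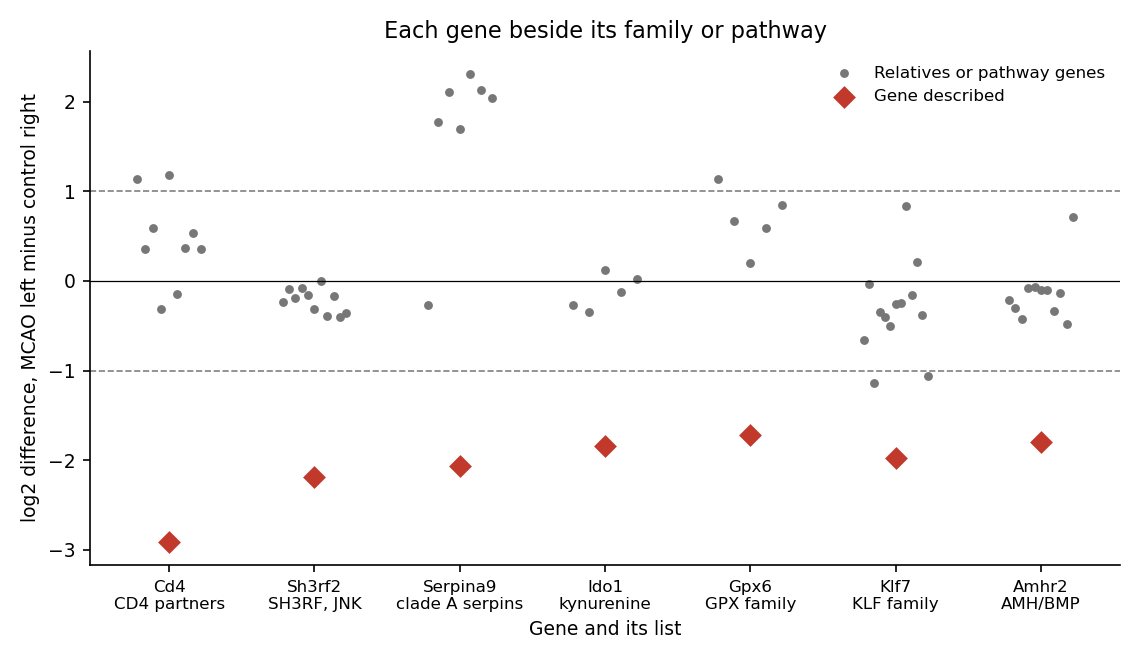
Log2 difference of the MCAO left from the control right library for 7 of the genes (diamonds) and for the genes of their family or pathway past the filter (grey points), with dashed lines at 2-fold. Each diamond lies below all grey points of its list, and 6 of the 7 clade A serpin genes lie above 1. The genes shown as diamonds were chosen among the lowest genes, so their place below relatives is part of that choice. Lrrc10b is not plotted because no gene of its list had a row.

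The nearest genes with a row on either side of each member were checked for like values, since reads can run over from a neighbour. Gpr162, which ends 0.498 kb from Cd4, had 6309 normalised counts in the MCAO, 6312 in the contralateral and 6601 in the control library. Syt7, 2.19 kb from Lrrc10b and encoding a synaptotagmin, had 6272, 6654 and 8104. Prr13, 4.53 kb from Amhr2, had 1693, 1614 and 1272. Creb1, next to Klf7 at 410 kb, had 1657, 1525 and 2101, and Trim27, next to Gpx6 at 101 kb, had 778, 814 and 891. These 5 neighbours were within 2-fold in both comparisons. Lag3, on the other side of Cd4 at 16.1 kb, was 3.68-fold higher in the MCAO than in the contralateral library (2.71 to 5.06) and 1.47-fold higher than in the control (1.16 to 1.86). Zscan12, 43.2 kb from Gpx6, was 1.98-fold lower than contralateral (1.6 to 2.47) and 1.2-fold lower than control (0.944 to 1.53). Of the lower neighbours, 4933402D24Rik beside Klf7 had 15.3 normalised counts in the MCAO, 32.8 in the contralateral and 25.2 in the control library. It was 2.15-fold lower than contralateral (1.12 to 4.4) and 1.65-fold lower than control (0.816 to 3.49), where the interval included 1. Serpina1c, beside Serpina9, had 0 MCAO reads against 17 contralateral and 10 control reads.

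On the other side, neighbours with few reads were high in the contralateral library. Adam18, a sperm surface gene 5.29 kb from Ido1, had 2.35 normalised counts in the MCAO and 81.6 in the contralateral library, and was listed at 1 in the control. Ppp1r32, 16.8 kb from Lrrc10b, had 10.6, 134 and 17.4. Serpina5 and Plac8l1, next to Serpina9 and Sh3rf2, were each listed at 1 in the MCAO and control libraries and had 24.0 in the contralateral one. Of the members beside them, Ido1, Lrrc10b and Serpina9 were at or below the control in the contralateral library and Sh3rf2 was at 1.34-fold. Whether reads ran over from a neighbour into any member was not tested. RefSeq places long noncoding RNA or pseudogene models over Ido1, Gpx6 and Klf7, and without a statement on strand their reads cannot be told apart from those of the genes.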

How the data were processed

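The deposited table holds 16610 gene symbols and 1 column per library, matched through the sample descriptions. The authors deposited a normalised signal, in which the reads of a gene were divided by one factor for each library and values below 1 were listed as 1. DESeq2, HISAT2 2.0.11, Partek 6.6, CASAVA 1.8, R 3.3.1 and the build mm10 are named in the submitters' processing notes, with no roles. Whether strand was used in counting is not given in the sources used here.

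Values above 1 were divided by what 1 read is worth, 1.18 in the MCAO, 0.887 in the contralateral and 0.969 normalised counts in the control column, and 99.9% of them were whole within 0.1 read in each. With 1 library per group no count test could be made and no p-value was computed. Differences are on the log2(normalised count + 5) scale, which understates those of low genes, over 14906 genes with a mean of at least 20. Folds are ratios without the pseudocount. The 95% intervals (Clopper-Pearson, exact) cover counting error only, because no molecular identifiers are stated and reads may not be independent molecules. Called means at least 2-fold. Gene coordinates are from RefSeq GRCm38.p6, with 15912 of 16610 symbols matched, and levels were not compared between genes. Calls and intervals were tested on simulated reads, with Python 3.11.15, numpy 2.4.6, pandas 2.3.3 and scipy 1.17.1.

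The members and all 20 gene lists were chosen with earlier results of these data known, and the germ cell and gonadal lists after their values were seen. Relatives were named by the largest means in a list, up to 4, or for passing 2-fold against both. Sh3rf1, Sh3rf3, Klf12, Amh, Insl3 and the neighbours beyond this rule were named after their values were seen. Alternatives were pseudocounts, filters, call sizes, scalings and each right hemisphere alone. Some genes that the naming rules picked are not reported here.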

Additional observations from a re-analysis of the deposited data

How the results depend on the processing

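All 120 alternative values of the 24 member differences moved by less than their counting interval, and none changed the direction of a 2-fold difference, with pseudocounts of 1 and 20 and 3 other scalings. The 2-fold call of Amhr2 in the contralateral over the control library was lost with a pseudocount of 20, at 0.88. All 8 members stayed at least 2-fold lower than both right hemispheres except with a mean of at least 50, which leaves out Gpx6, Klf7 and Amhr2 by construction and gives 5, and with both counting intervals wholly beyond 2-fold, which leaves out Gpx6. The 77 genes low against both became 132 with a pseudocount of 1, 28 with 20, 47 with a mean of at least 50, 331 at 1.5-fold, 11 at 3-fold and 19 by intervals. With 1 right hemisphere left out, chosen after seeing the data, the count ran between 187 (without contralateral) and 740 (without control), and that of members stayed at 8. Of 252 list counts 245 stayed within 1.5 times, but most of these were counts of 0 that stayed at 0, so the share says little about stability. The direct pathway list fell to 1 low gene with a pseudocount of 20 and with upper quartile scaling. With a pseudocount of 20 the CD4 partners had 0 higher genes instead of 1, and the germ cell and gonadal lists had 0 low genes instead of 1 each. The germ cell list had 3 low genes with a pseudocount of 1, and the clade A serpins 1 without a filter. The cause of these shifts was not tested. No paired analysis was possible because each group had 1 library. Depth limits Amhr2, Klf7, Gpx6 and Ido1, with 5 to 14 reads in the MCAO library.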
